A study of Mus musculus with 18 samples.

Results

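Peaks of liver RNA in 9 genes of the urea cycle and of amino acid breakdown were examined in editing-deficient mice, which lack ADAR1, and in Mavs-/- controls. The genes were chosen by name from the 55450 genes of GENCODE M21 on GRCm38, and all 9 carried a peak in at least 1 library: Cps1, Ass1, Asl and Arg1 of the urea cycle, Hpd, Tat and Fah of tyrosine breakdown, Tdo2 of tryptophan breakdown and Gls2, the liver-type glutaminase. RNA came from livers of mice 8 to 9 days old. The editing-deficient animals were Adar-/-; Mavs-/- and the controls Mavs-/-, so both groups lacked MAVS, the adaptor through which the RNA sensor MDA5 signals, and a mouse with intact Mavs was not among the samples. The sample titles call the controls wild-type, whereas their genotype field gives Mavs-/-, and the latter is used here. The double mutants came from crossing the 2 mutant strains, no restriction to a cell type is named for either, and the whole organ was extracted. Each genotype had 3 replicates of 3 fractions. Input was undigested total RNA, RNase-only was RNA refolded and digested with RNase, and MDA5-protected was RNA digested after incubation with recombinant MDA5 that lacked its signalling domains.

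The urea cycle disposes of ammonia: carbamoyl phosphate synthetase (Cps1) traps it in the mitochondrion, argininosuccinate synthase (Ass1) and argininosuccinate lyase (Asl) build arginine, and arginase (Arg1) splits arginine into urea and ornithine. The tyrosine pathway runs through tyrosine aminotransferase (Tat), 4-hydroxyphenylpyruvate dioxygenase (Hpd) and fumarylacetoacetate hydrolase (Fah), and tryptophan dioxygenase (Tdo2) opens the route from tryptophan to kynurenine. These enzymes are products of mature hepatocytes and are strongly expressed in liver, and several of their genes are switched on around birth. MDA5 binds long double-stranded RNA, which in mammalian transcripts is formed mostly by inverted repeats in introns and untranslated regions, and ADAR1 edits such duplexes.

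Each library is a list of peaks with positions, strand, significance and an area score, and it carries no read counts, which leaves the sequencing depth at each peak unknown. Input peaks were called without a control and peaks of both digested fractions against Input of the same genotype. The measure used for exons is therefore the share of mRNA bases that lie inside own-strand peaks (Input coverage, in percent), taken over the protein-coding transcript with the longest coding sequence. An exon with no peak is one that did not pass the caller, not one without RNA. The Input lists of the editing-deficient livers held 6991 to 8948 peaks and those of the Mavs-/- livers 4326 to 6625, so the 2 groups did not overlap in the length of their lists. The RNase-only lists held 5605 to 6094 and 3150 to 5572 peaks, and the MDA5-protected lists 1636 to 2868 and 1180 to 1829. Adar, the gene deleted in the editing-deficient mice, had an Input coverage of 0 to 7.70% in the 3 editing-deficient libraries and of 0 in all 3 Mavs-/- libraries, and Mavs had no Input peak in any, so peaks this sparse do not check either deletion.

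Exon sequences on which the genotypes differed are shown first for some of the genes. For 3 genes the longest coding stretch inside Input peaks of all 3 editing-deficient libraries and of no Mavs-/- library is given in capitals, with neighbouring coding bases in lower case. The last line shows, for contrast, the longest internal coding exon that lay wholly in peaks of all 6 Input libraries. Sequences are those of the GENCODE M21 transcripts, read 5′ to 3′ on the sense strand.
Arg1 exon 5: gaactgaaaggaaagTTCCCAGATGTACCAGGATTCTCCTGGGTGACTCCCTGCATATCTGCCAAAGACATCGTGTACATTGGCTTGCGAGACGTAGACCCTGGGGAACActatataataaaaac
Tat exons 4 and 5: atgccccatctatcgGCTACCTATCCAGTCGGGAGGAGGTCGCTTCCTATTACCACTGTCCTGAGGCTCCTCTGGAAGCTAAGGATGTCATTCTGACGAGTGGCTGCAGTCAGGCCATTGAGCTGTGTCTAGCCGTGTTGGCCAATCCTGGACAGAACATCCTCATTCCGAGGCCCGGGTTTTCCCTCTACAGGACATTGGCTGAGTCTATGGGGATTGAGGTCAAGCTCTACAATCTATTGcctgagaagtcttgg
Tdo2 exon 6: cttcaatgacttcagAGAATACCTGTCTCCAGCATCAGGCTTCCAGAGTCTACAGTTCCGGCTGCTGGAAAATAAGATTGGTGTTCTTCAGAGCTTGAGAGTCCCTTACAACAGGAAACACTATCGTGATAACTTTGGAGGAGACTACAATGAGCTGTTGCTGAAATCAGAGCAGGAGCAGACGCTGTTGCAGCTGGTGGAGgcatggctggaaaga
Cps1 exon 18: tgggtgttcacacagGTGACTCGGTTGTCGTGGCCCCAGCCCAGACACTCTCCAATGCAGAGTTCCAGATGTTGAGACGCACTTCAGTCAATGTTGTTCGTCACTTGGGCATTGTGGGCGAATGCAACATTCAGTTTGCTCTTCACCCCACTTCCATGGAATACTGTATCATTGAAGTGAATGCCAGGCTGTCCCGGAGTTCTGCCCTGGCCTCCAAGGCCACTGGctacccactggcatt

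On GRCm38 the capitals span chr10:24916775-24916869 (minus strand) in Arg1, chr8:109992583-109993980 (plus) in Tat, chr3:81968085-81968271 (minus) in Tdo2 and chr1:67172656-67172866 (plus) in Cps1. The Tat stretch runs across an intron that the mRNA does not contain. In Arg1 and Tdo2 the stretch is exactly 1 exon, of 95 and 187 nt, and in Tat it is exactly 2 adjoining exons, 227 nt together. The GC content was 52.6% in the Arg1, 53.3% in the Tat and 48.1% in the Tdo2 stretch, and 53.6% in the Cps1 exon.

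All 9 enzyme mRNAs had a higher mean Input coverage in the editing-deficient than in the Mavs-/- livers. In 8 of the 9 every editing-deficient library lay above every Mavs-/- library, against 16.7% of the 5169 genes tested, and in none was the order the opposite, against 3.02% of those genes. The median difference was 22.3 percentage points over the 9 enzymes and 5.11 over all genes tested. Among the 1291 genes with a peak in all 6 Input libraries, 20.4% were separated in the same way, against 6 of the 7 enzymes among them, all but Fah. The 9 genes were chosen with earlier results of these data known. These shares therefore describe the list and do not test whether it differs from other genes. With 3 libraries against 3, a two-sided exact permutation test cannot give a p under 0.10, and the 8 separated genes reached that value. After Benjamini-Hochberg adjustment over all genes the exact permutation p of these 8 was 0.508, so no enzyme passed on its own.

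**Figure D1:**
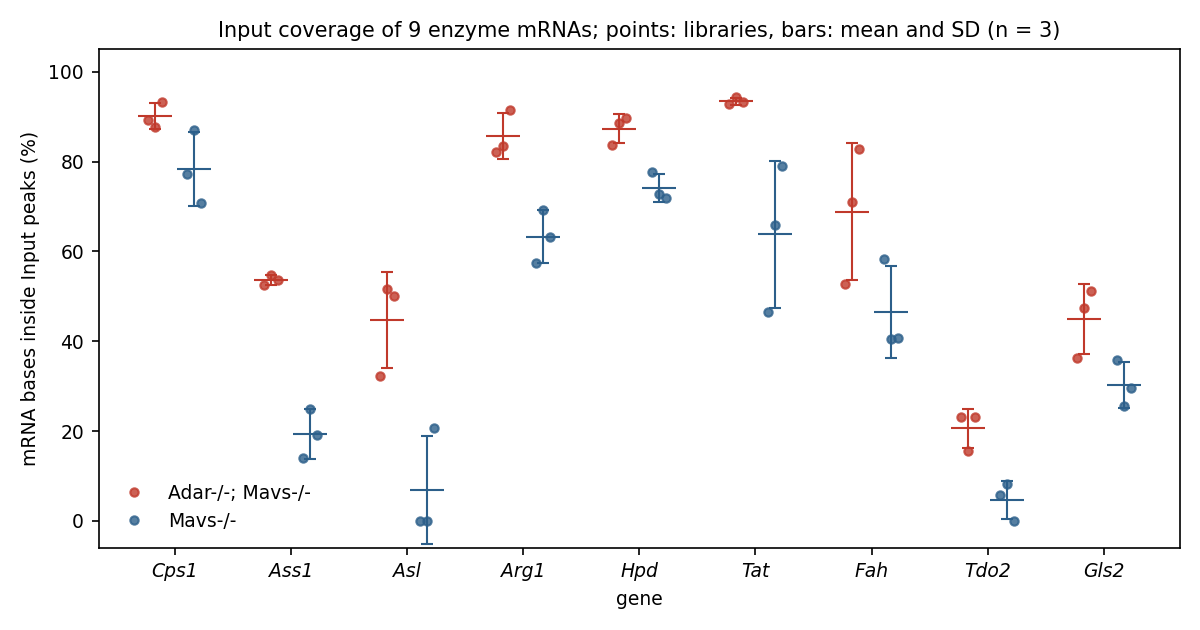
Input coverage, the percent of mRNA bases inside own-strand Input peaks, for each of the 9 genes; each point is 1 library, red for Adar-/-; Mavs-/- and blue for Mavs-/-, with the mean and SD of 3 replicates as bars. The 2 groups overlap only in Fah, and the means lie farthest apart in Asl, Ass1 and Tat.

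Cps1, the entry enzyme of the urea cycle, was the most widely covered gene of the cycle. Its Input coverage was 89.3, 87.6 and 93.3% in editing-deficient replicates 1, 2 and 3 and 77.2, 87.1 and 70.7% in the Mavs-/- replicates. The groups were separated, but by less than 1 percentage point between Mavs-/- replicate 2 and editing-deficient replicate 2. Cps1 has 38 exons, of which 22 were covered over at least 50% of their length in all 6 libraries, and none was without cover in all of them.

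Ass1 differed most evenly. Its coverage was 52.6, 54.7 and 53.7% in the editing-deficient libraries and 14.0, 25.0 and 19.0% in the Mavs-/- libraries, a difference of 34.3 points between means of 53.7 ± 1.06 and 19.3 ± 5.52 (SD, n = 3). The Mavs-/- peaks lay near the 3′ end. Exon 16, the last, was covered in all 6 libraries and exon 14 in 2 of 3 Mavs-/- libraries, while no Mavs-/- peak touched exons 1 to 13. As a result 2.02, 15.7 and 12.3% of the coding sequence but 82.2, 89.1 and 66.3% of the 3′ UTR lay in peaks of the Mavs-/- livers. In the editing-deficient livers 48.2, 57.3 and 48.6% of the coding sequence was covered. Exon 13 was covered in all 3 of them.

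Asl, which releases arginine from argininosuccinate, had no peak at all in Mavs-/- replicates 1 and 2. Its coverage was 32.3, 51.7 and 50.02% in the editing-deficient libraries and 20.7% in Mavs-/- replicate 3. Asl had the largest mean difference of the 9 genes, 37.8 points, with wide spreads of 10.7 and 12.0 points (SD, n = 3). Exons 2 and 5 were covered in all 3 editing-deficient and in no Mavs-/- library. The reference transcript has a first exon of 978 nt, and 720 bases of its 5′ UTR lay in no Input peak.

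Arg1, the enzyme that yields urea, reached 82.1, 83.4 and 91.5% in the editing-deficient and 57.5, 69.3 and 63.1% in the Mavs-/- libraries. The groups were separated by 12.9 points at their closest. Of its 8 exons, 4 were covered in all 6 libraries, and exon 5 in the 3 editing-deficient libraries alone. Exons 1, 2 and 6 were also covered in more editing-deficient than Mavs-/- libraries.

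Tat, the first enzyme of tyrosine breakdown and a classical glucocorticoid-induced gene, had the most exons covered in the 3 editing-deficient Input lists alone. Its coverage was 92.8, 94.3 and 93.2% in the editing-deficient and 46.5, 65.8 and 78.9% in the Mavs-/- libraries. Its whole coding sequence lay in peaks of each editing-deficient library, against 45.3, 52.6 and 73.1% in the Mavs-/- libraries. Exons 4, 5, 7 and 10 were covered in the 3 editing-deficient and in no Mavs-/- library, and exons 2, 3, 6 and 12 in all 6. The exons without Mavs-/- peaks were 53 to 159 nt long.

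Hpd, which acts after Tat, differed less. Its coverage was 83.6, 88.7 and 89.7% in the editing-deficient and 77.7, 72.8 and 71.8% in the Mavs-/- libraries, separated by 5.91 points at the closest. Of its 14 exons, 6 were covered in all 6 libraries. No base of the Hpd mRNA lay in peaks of all 3 editing-deficient libraries and of no Mavs-/- library.

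Fah, the last enzyme of the pathway, was the exception among the 9. Its coverage was 52.7, 71.1 and 82.8% in the editing-deficient and 58.4, 40.5 and 40.7% in the Mavs-/- libraries. The groups overlapped, since Mavs-/- replicate 1 lay above editing-deficient replicate 1, and the exact permutation p was 0.20, or 0.766 after adjustment over all genes. Without either of these libraries, or with only peaks of an area of at least 1000, the groups no longer overlapped.

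Tdo2, which starts tryptophan breakdown, had the lowest mean coverage of the 9 genes. Its coverage was 23.2, 15.7 and 23.1% in the editing-deficient and 5.68, 8.16 and 0% in the Mavs-/- libraries. Its last exon is 1855 nt long, mostly 3′ UTR, and 1352 bases of that UTR lay in no Input peak. Gls2, which releases ammonia from glutamine, had a coverage of 36.2, 47.4 and 51.3% in the editing-deficient and 35.8, 25.6 and 29.7% in the Mavs-/- libraries. Its groups were separated by less than 1 point, and 11 of its 18 exons were covered in no library.

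**Figure D2:**
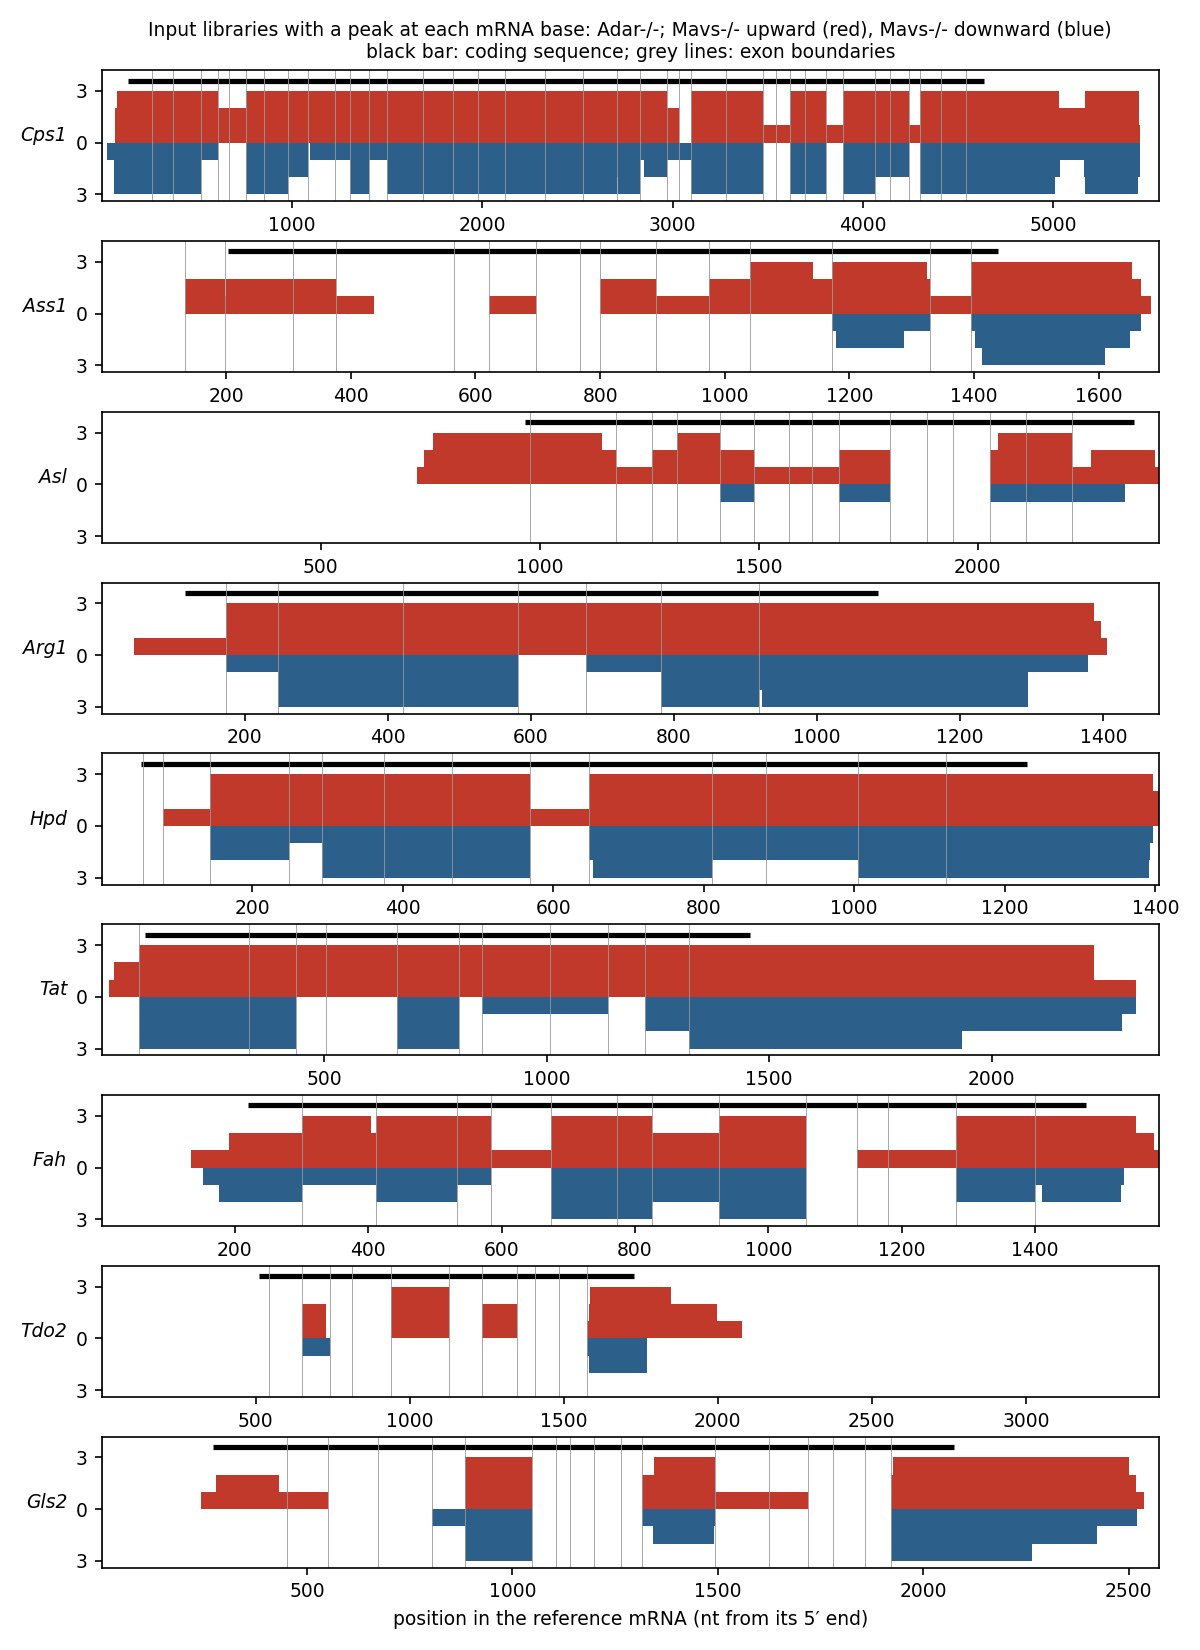
Number of Input libraries with an own-strand peak at each base of the 9 mRNAs, drawn upward in red for Adar-/-; Mavs-/- and downward in blue for Mavs-/- (3 libraries each), with the coding sequence as a black bar and exon boundaries as grey lines. Blue gaps under full red blocks mark the exons seen only in the editing-deficient lists, such as exons 4 and 5 of Tat and exon 5 of Arg1, and Ass1 has blue only near its 3′ end.

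Taken by exon, complete differences, 3 libraries against 0, ran in 1 direction. Of the 148 exons of the 9 genes, 42 were covered in all 6 Input libraries and 32 in none. In all, 9 exons were covered in all 3 editing-deficient and no Mavs-/- library, 4 of them in Tat, 2 in Asl and 1 each in Ass1, Arg1 and Tdo2, and 0 exons showed the reverse. The share of such exons over all genes was not measured. By gene, 16.7% of all genes tested were higher and 3.02% lower in the editing-deficient livers, whose Input lists were longer. The exons covered everywhere had a median length of 145 nt, those covered nowhere 76.5 nt and those covered in the editing-deficient lists alone 98 nt. A single base stretch ran the other way: 3 bases of the Cps1 5′ UTR lay in peaks of all Mavs-/- and of no editing-deficient library.

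The length of the lists also differed, as given above. When every Input list was reduced to its 4326 strongest peaks, all 9 means stayed higher in the editing-deficient livers and 3 of the 9 enzymes stayed separated, Ass1, Tat and Gls2, against 10.4% of 3524 genes. The mean difference was then 10.2 points in Cps1, 20.6 in Arg1, 10.7 in Hpd and 36.9 in Tat, and 22.4 in Asl and 4.95 in Tdo2. The share of higher among all separated genes was 61.1%, against 84.7% with the full lists. By the share of each library's summed peak area, which also rests on called peaks, 5 of the 9 were separated with more in the editing-deficient livers (Ass1, Asl, Arg1, Tat and Gls2), against 12.5% of all genes, and 646 genes were higher and 585 lower. Ass1 held 0.0745 ± 0.0106% of the summed area in the editing-deficient libraries and 0.0162 ± 0.00688% in the Mavs-/- libraries (SD, n = 3), and Tat 0.260 ± 0.0776% and 0.0901 ± 0.0405%. Cps1, at 0.467 ± 0.0808 and 0.440 ± 0.150%, and Hpd, at 0.107 ± 0.0131 and 0.104 ± 0.0223%, were not separated by this share. The Cps1 share ran from 0.297 to 0.597% within the Mavs-/- libraries.

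**Figure D3:**
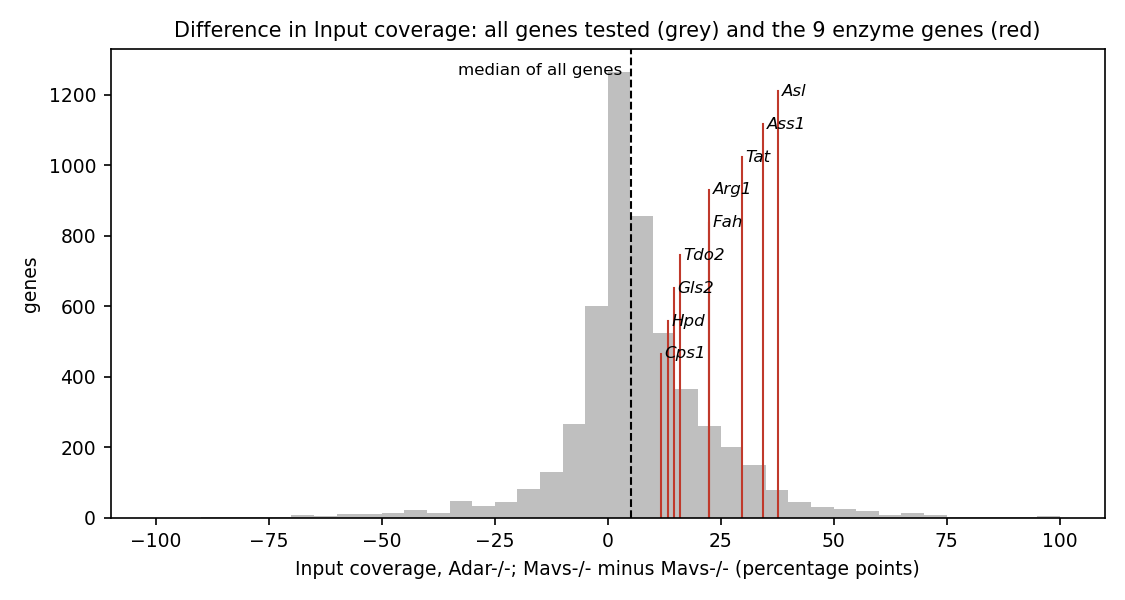
Histogram of the difference in mean Input coverage, Adar-/-; Mavs-/- minus Mavs-/-, in percentage points, over all 5169 genes tested (grey, number of genes per 5 points), with the 9 enzymes as red lines whose heights only separate the labels. All 9 lie to the right of the dashed median of all genes, 5.11 points, between 11.7 for Cps1 and 37.8 for Asl.

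Some markers of the liver's cell types differed between the groups as well. Of those measured in Input, 1 of 6 hepatocyte and 4 of 6 erythroid markers were lower in the editing-deficient livers, beside 3.02% of all genes. Of the macrophage markers 2 of 4 and of the endothelial markers 1 of 3 were higher, beside 16.7% of all genes. Neither of 2 stellate cell markers was separated. Over 6 hepatocyte markers, all with Input peaks, the summed coverage was 488 to 511 percentage points in the editing-deficient and 517 to 542 in the Mavs-/- libraries, with Alb at 99.8% in both and the widest difference in Ttr (61.4 and 80.4%). Over 6 erythroid markers it was 302 to 368 against 391 to 488, with Alas2 at 0 in the editing-deficient livers. The 5 macrophage markers summed to 168 to 182 against 152 to 169 points with Adgre1 at 0 throughout, 3 endothelial markers to 54.8 to 76.0 against 0 to 27.7, and 3 stellate cell markers to 28.8 to 49.6 against 4.10 to 86.6 with Lrat at 0. The cholangiocyte markers Krt19, Krt7 and Epcam were at 0 in every Input library. In the RNase-only lists, however, their exons had a mean coverage of 72.8, 7.97 and 60.2%, with peaks in 6, 5 and 6 libraries. The part of cell composition in the enzyme results was not tested. In whole liver, a change in the number of cells of a type and a change in RNA per cell cannot be told apart.

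The other genes of these pathways were more mixed than the 9 enzymes. Of 60 listed genes, 48 had Input coverage, and 15 (31.2%) were higher and 2 lower in the editing-deficient livers, where 16.7 and 3.02% of all genes were. Their median difference was 4.90 points, beside 5.11 for all genes. In the urea cycle and nitrogen list 2 of 7 genes measured were higher. These were Nags, which makes the activator of Cps1 (29.7 ± 12.4 against 0%), and Oat, ornithine aminotransferase (32.9 ± 23.5 against 0%). Otc, the one enzyme of the cycle outside the 9, was at 8.98 ± 3.13 and 13.3 ± 7.09% and was not separated (SD, n = 3 throughout).

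By list, beside the 16.7% of all genes, 3 of 4 histidine genes were higher (Hal, Amdhd1 and Ftcd), as were 4 of 8 genes of methionine and cysteine (Gnmt, Ahcy, Cbs and Cdo1), 2 of 10 of serine and glycine (Gldc and Agxt), 2 of 3 transaminases and 2 of 6 of lysine and branched-chain breakdown (Dbt and Ivd). Among the transaminases Got1 stood at 94.1 ± 5.87 against 26.7 ± 26.6% and Gpt2 at 56.5 ± 20.1 against 0%. The 2 genes that were lower were Qdpr, which regenerates the cofactor of phenylalanine hydroxylase (20.4 ± 18.0 against 36.9 ± 2.86%), and Shmt2, the mitochondrial serine hydroxymethyltransferase (10.0 ± 10.8 against 30.1 ± 3.80%). None of 5 genes of phenylalanine and tyrosine, of 2 of tryptophan, of 2 of proline or Asns was higher. The pathway genes with the highest mean Input coverage were Mat1a (97.9%), Ftcd (79.4%) and Prodh2 (77.5%), and Mat1a and Prodh2 differed between genotypes by less than 1 point.

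The exons of all 9 enzymes were missing from the lists of digested RNA. In none of the 12 digested libraries did an own-strand peak touch an exon of any of them. The mean change from Input to RNase-only was -84.2 points for Cps1, -80.7 for Hpd, -78.6 for Tat, -74.5 for Arg1, -57.7 for Fah, -37.7 for Gls2 and -36.5 for Ass1. These 7 passed at an adjusted p of 0.0251 (two-sided exact permutation test within genotypes, Benjamini-Hochberg over 7013 genes), where 17.7% of all genes tested were lower and 2.67% higher in RNase-only. Asl fell by 25.8 points (exact permutation p = 0.05, adjusted 0.139) and Tdo2 by 12.6 points (p = 0.02, adjusted 0.0685 in the same exact test), and neither passed. Since every RNase-only value of the 9 was 0, the 7 that passed are those with peaks in all 6 Input libraries, and the test adds nothing to that. With only peaks of an area of at least 1000, 4 of the 9 passed and Ass1, Fah and Gls2 did not, and with equal numbers of peaks per library Ass1 did not. Digested peaks were called against Input and Input peaks were not, so the difference is one between 2 kinds of list.

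An absence of digested exonic peaks was the common state. Of the 1291 genes with peaks in all 6 Input libraries, 71.8% had no exonic RNase-only base, 95.7% no exonic MDA5-protected base and 71.4% neither, and the 7 enzymes among them had neither. Because all 9 stood at 0 in every digested library, their exons could be compared neither between MDA5-protected and RNase-only nor between genotypes within a digested fraction. Of the 60 other pathway genes, 5 had exonic RNase-only bases, led by Oat (6.37% of the mRNA on average), Qdpr (5.72%) and Glul (3.61%). Glul, glutamine synthetase, was the only gene with MDA5-protected exonic bases (1.74%, from 1 library).

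Introns gave the digested peaks that these genes did have. Ass1 carried an RNase-only peak in intron 12 in each of the 3 editing-deficient livers and in no Mavs-/- liver. The 3 peaks lay at chr2:31504537-31504684, chr2:31504523-31504731 and chr2:31504539-31504700, with areas of 617, 858 and 527, where the caller's minimum was 500. They shared 146 bases, chr2:31504539-31504684, which lie 2970 nt or more from the nearest exon and overlap no other annotated gene. No Input peak overlapped these bases, the nearest being 51 bases away. The 3 libraries were separated from the Mavs-/- libraries (173 ± 32.0 against 0 intronic bases, SD, n = 3), as were 6.06% of the 1963 genes with such peaks, and the exact permutation p was 0.10, the smallest possible. The separation was lost with a minimum area of 1000, where no peak remained, and with equal numbers of peaks per library (69.7 against 0 bases).

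The same place in intron 12 carried peaks on the other strand. In editing-deficient replicates 1 and 2 an opposite-strand RNase-only peak, at chr2:31504514-31504706 and chr2:31504518-31504667, covered 146 and 129 of the 146 shared bases. Replicate 3 and the Mavs-/- livers had none. RNase-only peaks on both strands at 1 site were thus seen in 2 of 6 livers.

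MDA5-protected peaks were rarer still and did not recur. Ass1 had 1 in intron 6 (chr2:31487311-31487442, area 533) and Cps1 had 1 in intron 25 (chr1:67203840-67204124, area 502), both in editing-deficient replicate 2. In the MDA5-protected fraction 10.8% of the 1190 genes with intronic peaks were separated with more bases in the editing-deficient livers, and neither enzyme was. Gls2 had 1 RNase-only peak, in intron 7 of editing-deficient replicate 3 (chr10:128202743-128202866, area 576). Asl, Arg1, Hpd, Tat, Fah and Tdo2 had no own-strand digested peak of any kind.

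**Figure D4:**
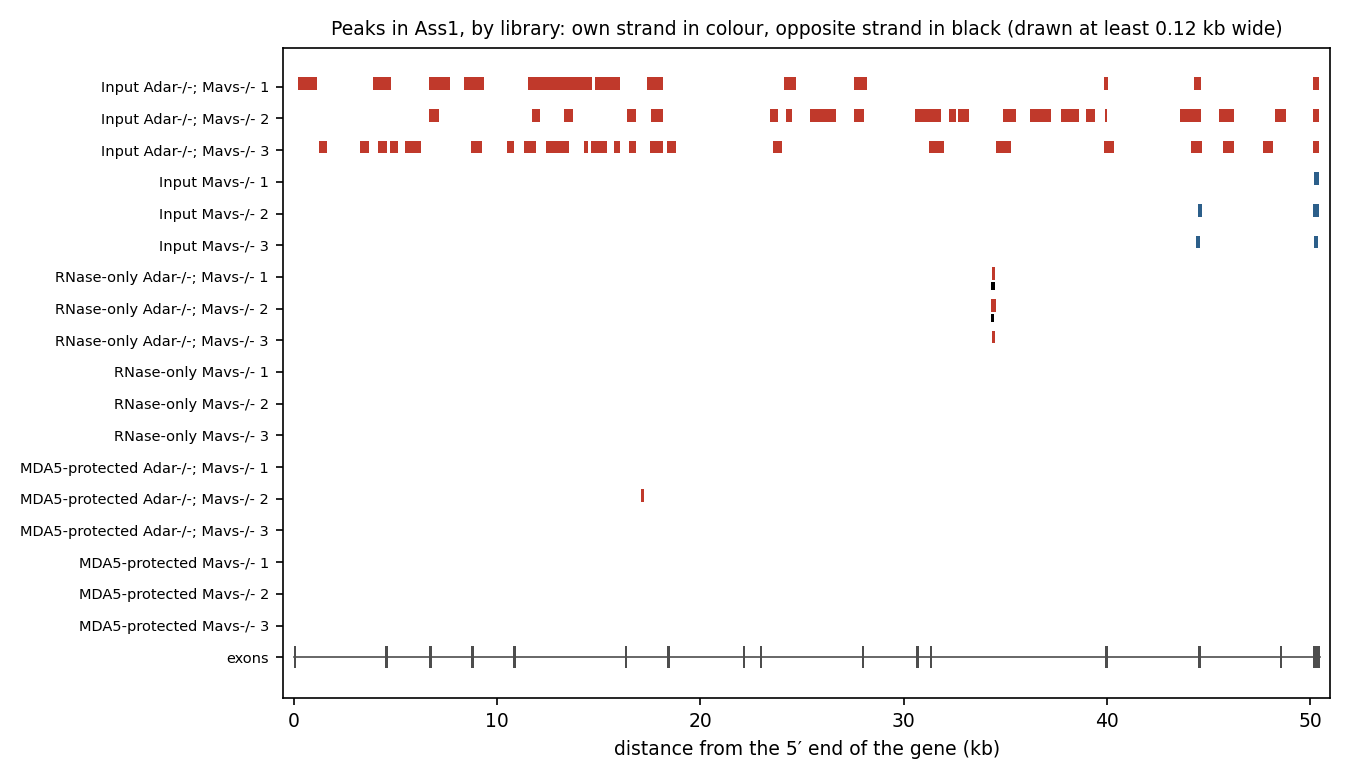
Peaks in the Ass1 gene in each of the 18 libraries, by distance from the 5′ end of the gene in kb; own-strand peaks are red (Adar-/-; Mavs-/-) or blue (Mavs-/-), opposite-strand peaks black, and exons grey at the bottom. Input peaks lie in introns only in the 3 editing-deficient livers, and the RNase-only peaks of the same 3 livers stand in 1 column in intron 12.

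Undigested RNA showed intronic peaks as well, and Ass1 led all genes by this measure. It had 5, 14 and 15 intronic Input peaks in the editing-deficient libraries and 0 in each Mavs-/- library, covering 6717, 8560 and 8267 bases against 0. The 34 peaks lay in 7 introns and took up 16.3% of the intronic sequence on average, and by mean bases in the editing-deficient livers Ass1 ranked 1st of the 496 genes with intronic Input peaks. In all, 12 stretches, 5492 nt together, were in peaks of at least 2 libraries, and 3 stretches, 1062 nt together, in peaks of all 3. The longest of these 3 was chr2:31487783-31488351 in intron 6.

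Cps1 ranked 5th, with 3068, 6130 and 4652 intronic bases in the editing-deficient and 0, 788 and 0 in the Mavs-/- libraries. In Cps1, 501 nt of intron 5 (chr1:67146754-67147254) were in peaks of 3 libraries. The rank takes no account of intron length. Cps1 has 102679 intronic bp, of which 4.50% was covered on average in the editing-deficient livers. That share was 3.93% in Arg1, ranked 120th, and 3.83% in Tat, ranked 167th. Ass1 and Cps1 were separated, as were 11.5% of the 496 genes, at the smallest possible exact permutation p of 0.10. Arg1 had an intron 3 peak and Tat an intron 4 peak in editing-deficient replicates 1 and 3, with 295 and 249 nt shared between the 2 replicates. Fah had 1 peak of 182 nt in editing-deficient replicate 2. Of 65 intronic Input peaks in the 9 genes, 64 were in editing-deficient livers, whose Input lists were also longer. Ass1 held 34 of the 65 and Cps1 26, while Asl, Hpd, Tdo2 and Gls2 had none. The split of such peaks over all genes was not measured.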

How the data were processed

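The 18 libraries of mouse liver RNA (2 genotypes, 3 fractions, 3 replicates) were grouped by title and genotype field. Per the labels, the authors used Trim Galore 0.6.6 for read trimming and Genrich 0.6.1 for peak calling on GRCm38 (mm10). Per their methods, peaks were called strand by strand, digested libraries against Input of the same genotype and Input without a control, with blacklisted regions and rRNA removed. The deposited area is a score computed by Genrich, at least 500.008 in these lists, that grows with depth, and it was compared only within a library or as a share of its sum. The deposited −log10 p-values and adjusted p-values are the caller's, and the weakest adjusted value was 3.12 on that scale. The peaks of the authors are intervals counted from 0, printed here counted from 1. Read counts were not part of the lists, so no depth or counting interval can be given. The caller's p-values do not measure a spread between libraries. The permutation p-values rest on how values are arranged over libraries, which the study calls biological replicates. The test of RNase-only against Input treats the libraries of the 2 fractions as unpaired.

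Coverage was counted over GENCODE M21 (the study used a later release) on the gene's own strand, for the protein-coding transcript with the longest coding sequence. An exon counted as covered from 50% of its bases. Intronic peaks touch no exon of any transcript of the gene. A gene was tested with at least 10 covered bases in 1 library. Genotypes were compared by non-overlap of 3 against 3 libraries, with a two-sided exact permutation test over 20 arrangements, and RNase-only with Input by a two-sided exact permutation test within genotypes (400 arrangements, smallest p 0.005), both adjusted by Benjamini-Hochberg over all genes tested, at a threshold of 0.05. The steps were tested on simulated data.

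The 9 genes, the other pathway genes and the markers were chosen with earlier results of these data known. All 9 are named. Of 60 other pathway genes, those named are the 3 with the highest mean exonic coverage in each fraction and those with an intronic digested peak in at least 2 libraries of a genotype. Nags, Otc, Qdpr, Shmt2, Got1, Gpt2 and the genes listed as higher were named after their values were seen, as were the exon stretches printed. Alternatives were a minimum area of 1000, equal numbers of peaks per library, exons of all transcripts, both strands, each replicate left out and the replicate number as a block. The share of summed peak area and the Input introns were added after seeing the data. No genome sequence was used here, so intronic sequences are not printed. Not reported here are some exon sequences. The software was Python 3.11.15, numpy 2.4.6 and matplotlib 3.10.9.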

Additional observations from a re-analysis of the deposited data

Results flagged for a closer look

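Peaks on the strand opposite to a gene, which no comparison above used, were present in 4 of the 9 genes, in editing-deficient libraries alone in 3 of them and in a Mavs-/- library alone in Hpd. Ass1 had such a digested peak in 2 editing-deficient libraries, the intron 12 peaks described above. Cps1 had 1, in the RNase-only fraction of editing-deficient replicate 1, at chr1:67154379-67154515 in intron 7 (area 876). Gls2 had 1 in Input of editing-deficient replicate 3, at chr10:128209991-128210482, which overlaps the 3′ end of Gls2 by 14 bases and lies on Spryd4, a neighbouring gene. Hpd had 1 RNase-only peak in Mavs-/- replicate 3, at chr5:123178429-123178481 in intron 7 (area 975), where Psmd9 and Gm26745 are also annotated. Differences between the genotypes in these counts were not tested.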

How the results depend on the processing

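The direction of the difference in Input coverage stayed the same under each alternative for the 9 enzymes. From Input to RNase-only it could not change, since every RNase-only value of the 9 was 0. The number of calls changed. In Input coverage, 862 genes were higher and 156 lower in the editing-deficient livers. With a minimum area of 1000 these were 387 and 79, with equal numbers of peaks 367 and 234, and by share of summed area 646 and 585. With each replicate left out in turn they were 983 to 1318 and 188 to 278. Of the 9 enzymes 8 were higher, against 3 with equal numbers of peaks, 5 by share of summed area and 8 to 9 with a replicate left out. From Input to RNase-only, 1238 genes and 7 enzymes were lower and 187 genes higher. With a minimum area of 1000 these were 595, 4 and 79, and with a replicate left out 1201 to 1458, 7 to 8 and 172 to 296. Tdo2 passed without Mavs-/- Input replicate 3.

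For RNase-only introns, 119 genes were higher in the editing-deficient livers, against 32 with a minimum area of 1000, 46 with equal numbers of peaks, 184 on both strands and 135 to 409 with a replicate left out, and the 1 enzyme among them, Ass1, became 0 under the first 2. For MDA5-protected introns 129 genes became 33 and 59 under the first 2 and 135 to 304 with a replicate left out. For Input introns 57 genes became 24, 30 and, on both strands, 112, and the 2 enzymes became 2 to 4 with a replicate left out, the 4 (Arg1 and Tat added) without editing-deficient Input replicate 2. Leaving out a library makes non-overlap easier to reach.

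Same-numbered Input or RNase-only libraries of the genotypes did not deviate together (r from -0.0531 to 0.0203). Nor did RNase-only and Input of a genotype (-0.109 to -0.011). These 2 kinds of list were called differently, so a low r cannot show that same-numbered libraries came from different RNA. Whether they are paired was not settled. Between MDA5-protected libraries of the genotypes r was 0.0859, 0.269 and -0.0507 for replicates 1, 2 and 3, so a lack of joint deviation is not stated for that fraction. MDA5-protected and RNase-only libraries of a genotype gave 0.0608 to 0.266, over 0.1 in all 3 editing-deficient pairs, but the 9 genes were not compared between these fractions. With the replicate block, a gene was called in Input coverage where all 3 pairs differed in the same direction. This gave 1142 genes higher, 8 enzymes among them, and 241 genes lower. From Input to RNase-only the block gave 0 genes lower, 0 higher and 0 enzymes in the exact sign-flip test, because 6 pairs cannot give an exact p under 0.03125. At that unadjusted p 1231 genes, 7 enzymes among them, were lower and 182 higher. Depth is unknown, so no limit of detection can be given for an uncovered exon.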

Other observations

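Intronic digested peaks in several libraries were found in other genes of amino acid metabolism. The counts below ask for peaks in the same gene, not at the same position. Of the 60 other pathway genes, 13 (21.7%) had an intronic RNase-only or MDA5-protected peak in at least 2 libraries of a genotype, against 1 of the 9 enzymes (11.1%), Ass1, 8.45% of the 5169 genes with Input coverage and 6.74% of the 1291 with peaks in all 6 Input libraries. The 60 genes were not chosen for Input peaks. Intron length was not taken into account. Kynu, which cleaves kynurenine downstream of Tdo2, had such peaks in all 12 digested libraries although its exons had no Input peak. Ido2, a second tryptophan-degrading dioxygenase, likewise had no exonic Input peak and had RNase-only intronic peaks in 2 editing-deficient and 1 Mavs-/- library.

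RNase-only intronic peaks were seen in 3 editing-deficient and 1 Mavs-/- library in Amdhd1, 3 and 2 in Sardh, 2 and 3 in Agxt2 and Dmgdh, 2 and 1 in Dbt, and 2 and 0 in Haao and Hal. MDA5-protected intronic peaks were seen in 2 editing-deficient and 3 Mavs-/- libraries in Slc25a13 and Glud1, in 2 and 2 in Bhmt, in 3 and 1 in Agxt2 and Dmgdh, and in 2 and 0 in Cth. Slc25a13 carries aspartate for the Ass1 reaction and Glud1 releases ammonia from glutamate. Differences between these counts were not tested.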
